A study of Sus scrofa with 9 samples.

Results

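The lysosome, its proton pump and the autophagy machinery were followed in cultured porcine embryonic fibroblasts (PEF), connective tissue cells grown from pig embryos, before and after the addition of insulin. The set comprised 55 listed genes, of which 5 encode lysosomal membrane proteins, 23 encode hydrolases or their cofactors, 13 encode subunits of the vacuolar proton pump (V-ATPase) and 14 encode autophagy proteins. Gene IDs were paired with symbols and every listed symbol with a match was taken. The list itself was chosen with earlier results of these data known. This matched 52 of the 55 genes, among 30477 gene IDs in all. The other 3, the pump genes ATP6V0C, ATP6V0E1 and ATP6V1E1, had no match and were not analysed here. All 52 matched genes were among the 11063 genes tested, which had FPKM (fragments scaled by gene length and by the mapped fragments of the library) of at least 1 in at least 3 libraries. The lowest value of any matched gene was 5.55 FPKM, for UVRAG.

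The 3 groups each had 3 libraries, made from total RNA after removal of ribosomal RNA. These were untreated PEF at 0 h, labelled control, and PEF collected 48 h and 72 h after insulin. All groups came from thawed and cultured embryonic fibroblast lines. The insulin concentration, the medium and whether the replicates came from separate embryos or lines have no mention in the labels, so p-values measure the spread between these libraries. No untreated culture of 48 h or 72 h was analysed here, so insulin and time in culture cannot be told apart. The title of the study asks which genes related to metabolism change after insulin.

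Lysosomes are acidic organelles in which hydrolases break down proteins, glycans, glycogen and lipids. The V-ATPase acidifies them by using ATP in its cytosolic V1 sector to drive protons through its membrane V0 sector. Autophagy encloses cytoplasm in a double membrane and delivers it to the lysosome. Insulin is known to activate the kinase complex mTORC1 at the lysosomal surface, and mTORC1 is known to restrain both the autophagy kinase ULK1 and TFEB, a transcription factor for lysosomal genes.

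The libraries resembled one another within each time. Correlations of log2 values were 0.990 to 0.995 between the libraries of a time (9 pairs) and 0.956 to 0.987 between times (27 pairs), and no pair shared identical FPKM in more than 71 genes. Between 10761 and 10833 genes per library reached 1 FPKM. FPKM summed to between 487858 and 497665 at 0 h, between 524992 and 563656 at 48 h and between 505022 and 525471 at 72 h. The FPKM sum was therefore higher in every 48 h library and every 72 h library than in every 0 h library. Counts of calls with the sums made equal are given for each group of genes. The 9 matched fibroblast markers of 10 summed to 21233 to 22152 FPKM at 0 h, 18957 to 20262 at 48 h and 21653 to 22057 at 72 h. Within that sum, single markers moved in opposite directions (limma, adjusted p below 0.05). At 48 h, DCN, LUM, PDGFRA and VIM were higher than at 0 h and COL1A1, COL1A2 and COL3A1 lower. At 72 h, DCN, LUM, PDGFRA, PDGFRB and VIM were higher and COL1A2 lower. Of the osteoclast markers, 6 of 6 were below 1 FPKM in all 9 libraries.

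Most hydrolases and lysosomal membrane proteins were higher after insulin, more of them at 72 h than at 48 h, while called pump and autophagy genes were fewer and ran in both directions. At 72 h against 0 h, 28 of the 52 genes were called higher and 4 lower by limma at an adjusted p below 0.05, adjusted over all tested genes. Over all 11063 genes, 45.5% were called in that comparison, 23.0% higher and 22.5% lower. The median log2 change of the 52 genes was 0.26, beside -0.01 over all tested genes. At 48 h against 0 h, 21 were called higher and 5 lower, beside 27.6% and 22.4% of all tested genes (49.9% together), with a median of 0.13 beside 0.02. Between 72 h and 48 h, 18 were called higher and 0 lower, beside 9.17% and 16.3% of all tested genes (25.4% together), with a median of 0.11 beside -0.03. Without adjustment, limma put 1 of the 52 genes, ATP6V1C1, lower in that last comparison at a p below 0.05. Both insulin times were compared with the same 0 h libraries. The 52 genes were chosen with earlier results of these data known, so their counts beside all tested genes only describe the set.

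Counted by whether the libraries of the groups overlapped, 30 of the 52 genes had all 72 h libraries above and 5 all below the 0 h libraries, beside 28.1% and 30.4% of all tested genes. At 48 h against 0 h these were 24 above and 6 below, beside 32.4% and 27.6%. Between 72 h and 48 h they were 23 above and 1 below, beside 14.9% and 23.9%.

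The 48 h counts depended on how the libraries were scaled. With FPKM sums made equal, the median tested gene moved by -0.12 (log2) at 48 h, 9 of the 52 genes were called higher and 8 lower, and the share of higher calls among all calls was 34.7%, against 55.2% as deposited. With sums made equal over protein-coding genes that share was 38.4%, and 11 of the 52 genes were higher and 8 lower. The 48 h calls lost with equal sums were those of LAMP1, CD63, SCARB2, CTSA, CTSB, GAA, HEXA, LIPA, PPT1, GRN, ATP6AP1 and ATG9A (limma, adjusted p = 0.075 to 0.70). Equal protein-coding sums lost the same ones except LAMP1 and GAA (adjusted p = 0.068 to 0.45). Quantile normalization lost 10 of the 48 h calls, those of CTSD and, of the genes just named, all but SCARB2, GAA and LIPA (adjusted p = 0.14 to 0.81). Removing the trend of log2 values on gene span lost those of CTSB, CTSD, NEU1, PPT1, TPP1, ATP6V1C1, ATP6AP1 and ATG9A (adjusted p = 0.059 to 0.91) and left CD63, CTSA and GRN just below 0, with no call. The calls of 9 of the 26 genes called at 48 h, of 27 of the 32 called at 72 h and of 15 of the 18 called between 72 h and 48 h were made under every alternative tried. Between 72 h and 48 h, the share of higher calls over all genes was 36.0% as deposited, 48.6% after quantile normalization, 55.9% with equal sums and 55.1% with equal protein-coding sums. At 72 h against 0 h it was 50.5% as deposited, 51.3% after quantile normalization, 42.4% with equal sums and 45.6% with equal protein-coding sums. Of the 11063 tested genes, equal sums put 1959 higher and 3691 lower at 48 h, and 2159 and 2927 at 72 h. The equal-sum counts of each gene group below are to be read beside these.

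**Figure D1:**
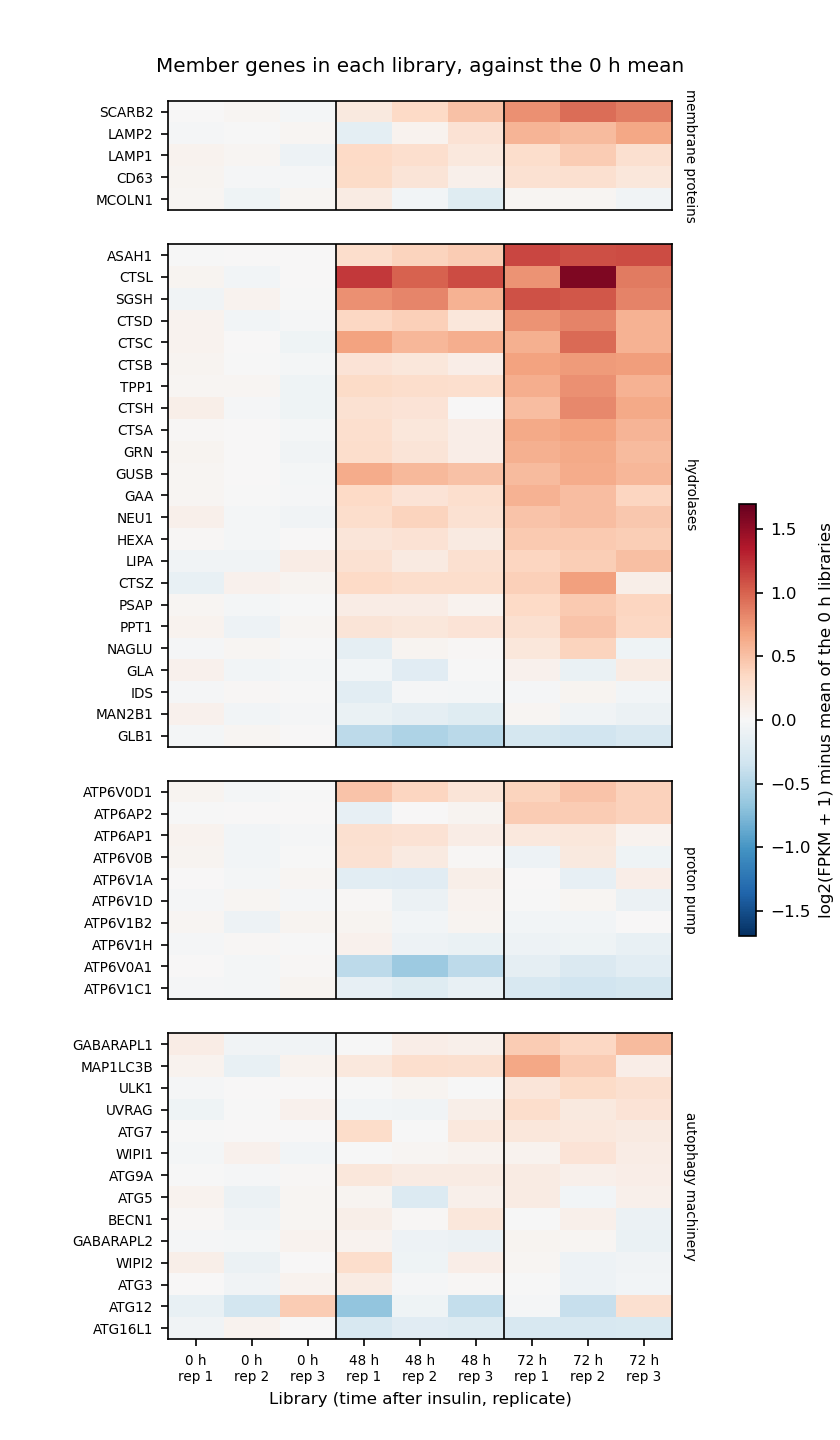
Each row is a gene and each column a library. Colour gives log2(FPKM + 1) minus the mean of the 0 h libraries of that gene, with genes sorted by the change at 72 h within each group. Most hydrolase rows are red at 72 h, while GLB1, ATP6V0A1, ATP6V1C1 and ATG16L1 are blue at both insulin times.

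The set divided by the timing of its calls. At both 48 h and 72 h, 19 genes were higher, and 15 of these were hydrolases. Another 9 were called higher at 72 h only against 0 h, namely LAMP2, CTSH, CTSZ, PSAP, ATP6AP2, ULK1, GABARAPL1, MAP1LC3B and UVRAG. GLB1, ATP6V0A1, ATP6V1C1 and ATG16L1 were lower at both times, ATP6AP1 and ATG9A were called higher at 48 h only, and MAN2B1 was called lower at 48 h only. No call was made in any of the 3 comparisons for 17 genes, of which 5 belonged to the pump and 8 to the autophagy machinery. A moderated F-test over the 3 times passed the same threshold for 33 of the 52 genes, beside 60.6% of all tested genes. A call at only 1 of the times does not show that the times differ. Of the 9 genes called higher at 72 h only, 7 were also called higher at 72 h than at 48 h, and CTSZ and MAP1LC3B were not (limma, adjusted p = 0.63 and 0.34). ATP6AP1, ATG9A and MAN2B1 were not called between 72 h and 48 h (adjusted p = 0.44, 0.50 and 0.18).

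The membrane proteins form the glycoprotein lining and the transport equipment of the lysosome. Of 5, 3 were called higher at 48 h and 4 at 72 h, beside 27.6% and 23.0% of all tested genes. The median log2 changes of the 5 were 0.21 and 0.34. With equal sums, 0 of 5 were called at 48 h (median 0.07) and 4 at 72 h (0.28), and 1 was called at 48 h after quantile normalization or with equal protein-coding sums. SCARB2 (LIMP-2), which carries the enzyme glucocerebrosidase to the lysosome, had 27.8, 28.3 and 27.1 FPKM at 0 h, 31.2, 35.4 and 39.5 at 48 h and 48.3, 54.6 and 51.7 at 72 h. Every library was above those of the earlier time. Its log2 change was 0.87 ± 0.08 (SE) at 72 h against 0 h (limma, adjusted p = 1.1e-05), 0.33 ± 0.08 at 48 h against 0 h (adjusted p = 0.0071) and 0.54 ± 0.08 at 72 h against 48 h (adjusted p = 0.0013).

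LAMP2, a major lysosomal membrane glycoprotein with an isoform that serves as receptor of chaperone-mediated autophagy, had 60.7, 61.2 and 63.5 FPKM at 0 h, 54.9, 64.2 and 73.5 at 48 h and 92.5, 90.4 and 98.0 at 72 h. The 48 h libraries spread on either side of the 0 h ones, and all 72 h libraries lay above both. The log2 change was 0.59 ± 0.09 at 72 h against 0 h (limma, adjusted p = 0.00034) and 0.04 ± 0.09 at 48 h against 0 h (adjusted p = 0.70). Its relative LAMP1 had 137, 135 and 124 FPKM at 0 h, 166, 161 and 149 at 48 h and 163, 178 and 159.6 at 72 h. Here the groups at 48 h and 72 h overlapped each other and both lay above 0 h. The log2 change of LAMP1 was 0.34 ± 0.07 at 72 h against 0 h (limma, adjusted p = 0.0020) and 0.26 ± 0.07 at 48 h against 0 h (adjusted p = 0.0078).

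CD63, a tetraspanin of late endosomes, lysosomes and secreted vesicles, was the most abundant of these 5 by FPKM, with means of 439.6, 509.7 and 520.0 FPKM at 0 h, 48 h and 72 h (SD 11.5, 43.3 and 17.0, n = 3 each). It was called higher at 72 h (log2 0.24, limma, adjusted p = 0.012) and at 48 h (0.21, adjusted p = 0.023). Removing the trend of log2 values on gene span left it at -0.06 at 48 h (adjusted p = 0.30) and at 0.12 at 72 h (adjusted p = 0.062). Its 48 h call was also lost without 0 h replicate 2 or 3 or without 48 h replicate 1 or 2 (adjusted p = 0.063 to 0.075), and its 72 h call after quantile normalization (adjusted p = 0.057). MCOLN1 (TRPML1), the calcium-permeable channel of the lysosome, averaged 7.09 ± 0.338, 6.91 ± 0.940 and 7.10 ± 0.272 FPKM (SD, n = 3 each) at the 3 times and was not called.

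Most of the called genes were hydrolases. At 72 h, 18 of 23 were called higher and 1 lower, with a median log2 change of 0.49. At 48 h, 15 were higher and 2 lower, with a median of 0.21, and between 72 h and 48 h 11 were higher and 0 lower, with a median of 0.20. Among all tested genes, 23.0% were higher and 22.5% lower at 72 h, and 27.6% and 22.4% at 48 h. Between 72 h and 48 h these shares were 9.17% and 16.3%. With equal sums the hydrolase counts were 18 higher and 1 lower at 72 h, and 8 higher and 3 lower at 48 h. In that setting, 2159 of the 11063 tested genes were higher and 2927 lower at 72 h, and 1959 and 3691 at 48 h. The FPKM of the hydrolases summed to 1598 ± 37.3, 1811 ± 69.9 and 2356 ± 83.5 at 0 h, 48 h and 72 h (SD, n = 3 each). As a share of the FPKM sum of each library this was 0.323% ± 0.00711, 0.333% ± 0.00392 and 0.458% ± 0.00703. The share was 0.3156% to 0.3296% at 0 h and 0.3300% to 0.3374% at 48 h, close together though without overlap. All 72 h libraries, at 0.454% to 0.466%, lay well above both.

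**Figure D2:**
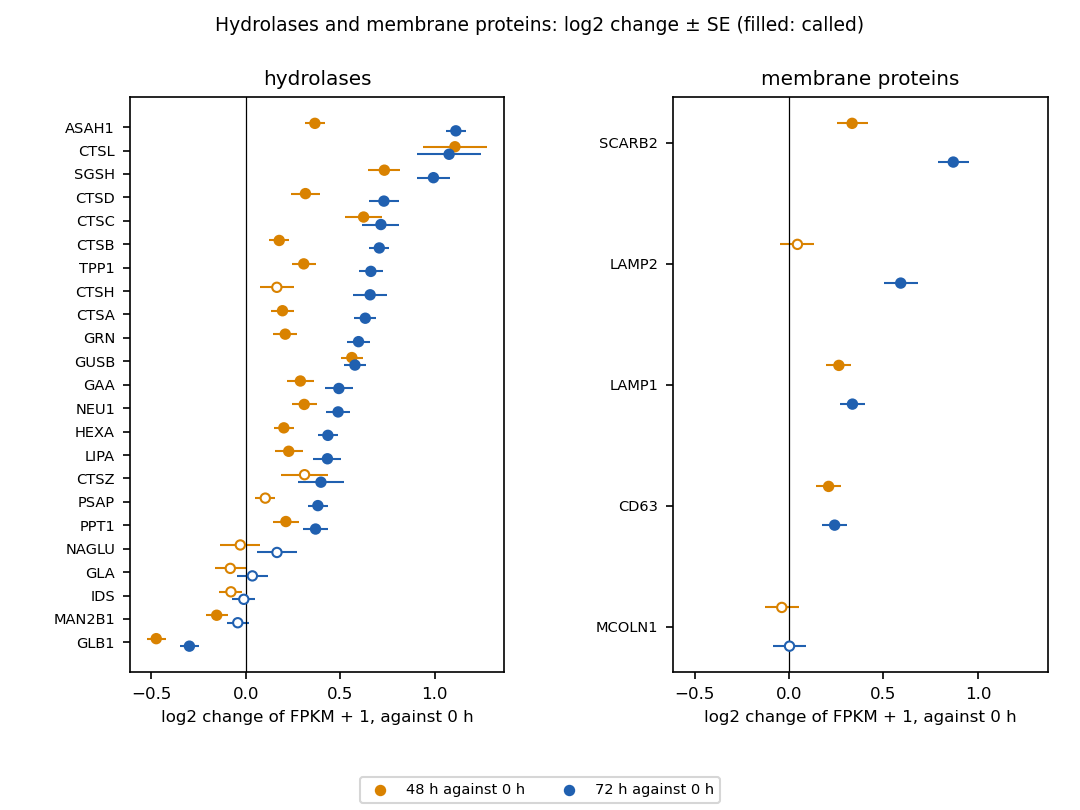
Points give the log2 change of FPKM + 1 against 0 h for each hydrolase (left) and membrane protein (right), at 48 h (orange) and 72 h (blue). Bars are ± SE from the limma fit and filled points were called. The 72 h points of most hydrolases lie to the right of their 48 h points, with GLB1 at -0.30 and MAN2B1 at -0.04 among the lowest.

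Among the hydrolases, all 8 proteases were called higher at 72 h (median log2 change 0.69) and 6 of 8 at 48 h (0.31). The shares of all tested genes called higher were 23.0% and 27.6%. Cathepsin B (CTSB, gene ID ENSSSCG00000023666, Sscrofa11.1 chromosome 14, 15014139 to 15035081), a cysteine protease, was the most abundant by FPKM. It had 452, 436 and 427 FPKM at 0 h, 513, 499 and 475 at 48 h and 703, 727 and 718 at 72 h. The 3 times did not overlap. On the log2 scale it changed by 0.71 ± 0.05 at 72 h against 0 h (limma, adjusted p = 1.6e-06), 0.53 ± 0.05 at 72 h against 48 h (adjusted p = 7.8e-05) and 0.18 ± 0.05 at 48 h against 0 h (adjusted p = 0.017). The 48 h call was lost without 0 h replicate 2, 0 h replicate 3 or 48 h replicate 2 (adjusted p = 0.057 to 0.076).

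CTSD, the aspartic protease of lysosomes, had 159, 147 and 149 FPKM at 0 h, 194, 201 and 173 at 48 h and 258, 273 and 228 at 72 h, again with no overlap. Its log2 change was 0.73 ± 0.08 at 72 h against 0 h (limma, adjusted p = 2.7e-05) and 0.32 ± 0.08 at 48 h against 0 h (adjusted p = 0.0072). CTSA, a carboxypeptidase that also protects GLB1 and NEU1 in a complex, averaged 126 ± 2.38, 144 ± 8.92 and 196 ± 7.76 FPKM at 0 h, 48 h and 72 h (SD, n = 3 each). Its change on the log2 scale was 0.63 at 72 h and 0.19 at 48 h, both called. TPP1, which removes tripeptides from protein ends, rose by 0.66 at 72 h and 0.31 at 48 h. CTSA at 48 h lost its call when either of 0 h replicates 2 and 3 or 48 h replicates 1 and 2 was left out (limma, adjusted p = 0.052 to 0.070), and stood at -0.00 (adjusted p = 0.96) once the trend on gene span was removed.

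CTSL and CTSC had low levels and the largest proportional rise among the proteases at 48 h. CTSL, a cysteine protease, had 6.77, 6.30 and 6.59 FPKM at 0 h, 16.3, 14.2 and 15.4 at 48 h and 11.8, 21.7 and 12.9 at 72 h. All insulin libraries lay above all 0 h libraries, and 72 h replicate 2 stood well above the other two of its time. Its log2 change was 1.08 ± 0.17 at 72 h (limma, adjusted p = 0.00046) and 1.11 ± 0.17 at 48 h (adjusted p = 0.00047). Without 72 h replicate 2, CTSL was called lower at 72 h than at 48 h (log2 -0.29, adjusted p = 0.031). CTSL has a close paralog, CTSV, and how reads were shared between them is not stated. CTSC, which activates other proteases by trimming them, averaged 7.11 ± 0.365, 11.5 ± 0.485 and 12.4 ± 2.02 FPKM (SD, n = 3 each) at the 3 times, with log2 changes of 0.72 at 72 h and 0.62 at 48 h.

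CTSH and CTSZ, exopeptidases of the same cysteine protease family, were called at 72 h and not at 48 h against 0 h. CTSH had 75.4, 69.6 and 67.0 FPKM at 0 h, 84.6, 83.1 and 70.9 at 48 h and 102, 125 and 111 at 72 h. The 48 h and 0 h libraries overlapped, and the 72 h ones lay above both. On the log2 scale it changed by 0.66 ± 0.09 at 72 h (limma, adjusted p = 0.00016) and 0.16 ± 0.09 at 48 h (adjusted p = 0.15). CTSZ had 13.4, 15.6 and 15.2 FPKM at 0 h, 18.9, 18.2 and 18.3 at 48 h and 19.7, 24.3 and 15.8 at 72 h. All its insulin libraries lay above the 0 h ones, and those of 48 h lay within the wide range of 72 h. At 48 h its change was 0.31 (limma, adjusted p = 0.056), called in 5 of 19 other settings, and the 72 h against 48 h difference was 0.09 (adjusted p = 0.63). The 72 h call (log2 0.40, adjusted p = 0.022) was lost with no filter on low values (adjusted p = 0.060) and without 0 h replicate 1, 72 h replicate 1 or 72 h replicate 2 (adjusted p = 0.056 to 0.081).

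Both glycan-degrading patterns, up and down, occurred among the 8 glycosidases, of which 4 were higher and 1 lower at 72 h and 4 higher and 2 lower at 48 h. The shares of all tested genes were 23.0% higher and 22.5% lower at 72 h, and 27.6% and 22.4% at 48 h. GUSB, the beta-glucuronidase, had 44.1, 43.4 and 42.0 FPKM at 0 h, 67.7, 63.9 and 61.1 at 48 h and 63.4, 67.3 and 64.2 at 72 h. Its log2 changes were 0.58 ± 0.06 at 72 h (limma, adjusted p = 1.4e-05) and 0.56 ± 0.06 at 48 h (adjusted p = 3.1e-05). The difference of 0.02 between the times was not called (adjusted p = 0.85). NEU1, the sialidase, and GAA, which breaks down glycogen, both rose by 0.49 at 72 h and by 0.31 and 0.29 at 48 h. HEXA, a subunit of beta-hexosaminidase, rose by 0.44 at 72 h and 0.20 at 48 h.

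GLB1 (beta-galactosidase; ENSSSCG00000024119, chromosome 13, 18878407 to 18978999) was the only hydrolase of the set called lower at both insulin times. It had 73.6, 77.4 and 75.6 FPKM at 0 h, 55.2, 52.3 and 54.7 at 48 h and 61.0, 60.2 and 62.4 at 72 h. All insulin libraries lay below all 0 h libraries, and all 72 h libraries lay above all 48 h ones. Its log2 change was -0.30 ± 0.05 at 72 h against 0 h (limma, adjusted p = 0.00074) and -0.47 ± 0.05 at 48 h against 0 h (adjusted p = 4.5e-05), and both calls were made under every alternative tried. The difference of 0.18 between 72 h and 48 h (adjusted p = 0.029) was lost without 0 h replicate 3, 48 h replicate 2, 72 h replicate 1 or 72 h replicate 3 (adjusted p = 0.052 to 0.11) and with the trend on gene span removed (adjusted p = 0.16). GLB1 overlaps the protein-coding gene TMPPE by 6801 bases of annotation, and no label says whether reads were assigned by strand.

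MAN2B1, an alpha-mannosidase, averaged 56.6 ± 2.48, 50.7 ± 1.63 and 54.9 ± 2.48 FPKM (SD, n = 3 each) at the 3 times. Its 48 h fall (log2 -0.15, limma, adjusted p = 0.048) was near the threshold and was lost without any one of 7 libraries, namely the 3 at 0 h, replicates 2 and 3 of 48 h and replicates 1 and 2 of 72 h (adjusted p = 0.052 to 0.18). GLA, the alpha-galactosidase, and NAGLU, which acts on heparan sulfate, were not called, with log2 changes of 0.04 and 0.17 at 72 h and -0.08 and -0.03 at 48 h.

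The 3 hydrolases classed under lipid breakdown, ASAH1, LIPA and PPT1, were called higher at both times. The shares of all tested genes called higher were 23.0% at 72 h and 27.6% at 48 h. This class was made after the values were seen, and enzymes placed in the other classes are not covered by it. ASAH1, acid ceramidase (ENSSSCG00000006995, chromosome 17, 5712048 to 5749811), had 24.0, 24.3 and 24.2 FPKM at 0 h, 29.8, 31.7 and 32.9 at 48 h and 54.1, 52.8 and 53.3 at 72 h. The libraries of a time lay close together and the 3 times were far apart. Its mean at 72 h was 2.21 times that at 0 h, with a log2 change of 1.11 ± 0.05 (limma, adjusted p = 6.7e-08). It changed by 0.75 ± 0.05 at 72 h against 48 h (adjusted p = 1.4e-05) and by 0.37 ± 0.05 at 48 h against 0 h (adjusted p = 0.00037), and all these calls were made under every alternative tried. LIPA, the acid lipase that frees cholesterol from its esters, averaged 12.4 ± 0.993, 14.6 ± 0.693 and 17.0 ± 0.989 FPKM (SD, n = 3 each), a log2 change of 0.43 at 72 h. PPT1, which removes palmitate from proteins, averaged 40.6 ± 2.28, 47.1 ± 0.629 and 52.8 ± 4.11 FPKM, a change of 0.37 at 72 h.

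At 48 h LIPA and PPT1 were called at 0.23 and 0.21 (limma, adjusted p = 0.026 and 0.023). The LIPA call was lost without 0 h replicate 1 or 2 or 48 h replicate 1 or 3 (adjusted p = 0.059 to 0.093), and the PPT1 call without 0 h replicate 2 or 48 h replicate 2 (adjusted p = 0.051 to 0.0995). The annotated LIPA span overlaps the interferon-induced genes IFIT1, IFIT2 and IFIT3. Overlap of exons was not examined, so whether reads are shared between them is unknown.

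The sulfatase SGSH, which removes sulfate from heparan sulfate, had 14.4, 15.6 and 14.9 FPKM at 0 h, 26.4, 27.4 and 22.9 at 48 h and 32.7, 32.3 and 27.5 at 72 h. The 3 times did not overlap, and replicate 3 was the lowest at both insulin times. Its change on the log2 scale was 0.99 ± 0.09 at 72 h (limma, adjusted p = 5.1e-06) and 0.73 ± 0.09 at 48 h (adjusted p = 7.8e-05). The difference of 0.26 between 72 h and 48 h (adjusted p = 0.047) was lost when any one of the 0 h libraries, the 48 h libraries or 72 h replicates 1 and 2 was left out (adjusted p = 0.054 to 0.14), and with no filter on low values (adjusted p = 0.092). IDS, the sulfatase that acts on iduronate, averaged 30.4 ± 0.486, 28.8 ± 1.79 and 30.2 ± 1.06 FPKM (SD, n = 3 each) and was not called.

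Both cofactor precursors were higher at 72 h. PSAP, which is cut into the saposins that present lipids to hydrolases, had 283, 269 and 274 FPKM at 0 h, 302, 299.9 and 286 at 48 h and 349, 374 and 355 at 72 h. The 72 h libraries lay above the rest. Its log2 change was 0.38 ± 0.05 at 72 h (limma, adjusted p = 0.00016) and 0.10 ± 0.05 at 48 h (adjusted p = 0.12). GRN, progranulin, averaged 105 ± 3.92, 121 ± 8.01 and 159 ± 5.92 FPKM (SD, n = 3 each), with changes of 0.60 at 72 h (adjusted p = 2.2e-05) and 0.21 at 48 h (adjusted p = 0.017). The 48 h call of GRN was lost without 0 h replicate 3, 48 h replicate 1 or 48 h replicate 2 (adjusted p = 0.051 to 0.075), and its value was -0.00 (adjusted p = 0.99) once the trend on gene span was removed.

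**Figure D3:**
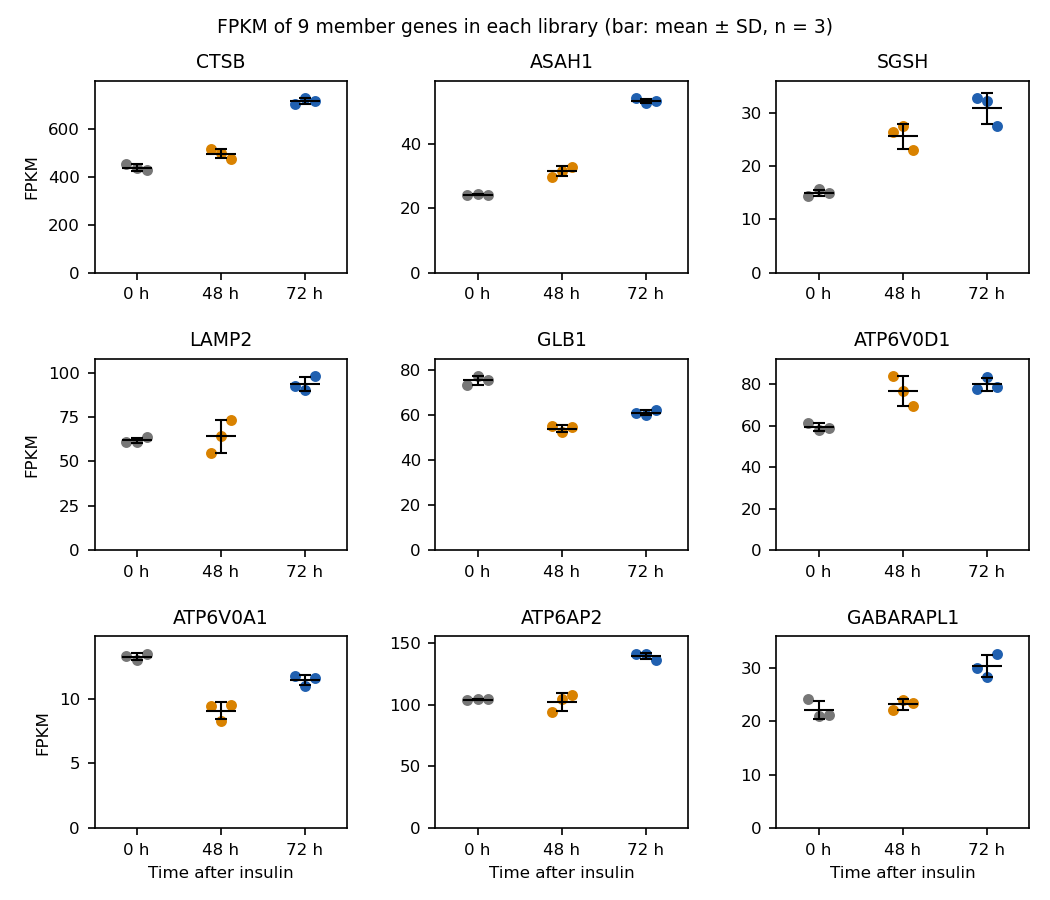
Dots give the FPKM of 9 genes in each library at 0 h (grey), 48 h (orange) and 72 h (blue), with a bar at the mean ± SD (n = 3). CTSB, ASAH1 and SGSH are higher at each later time, LAMP2, ATP6AP2 and GABARAPL1 are set apart at 72 h only, and GLB1 and ATP6V0A1 are lowest at 48 h.

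The calls among the proton pump genes were split between higher and lower. Of 10 matched genes, 2 were called higher and 2 lower at 72 h, likewise 2 and 2 at 48 h, and the median log2 changes were -0.01 and -0.02. Over all tested genes, 23.0% were called higher and 22.5% lower at 72 h, and 27.6% and 22.4% at 48 h. The pump counts were near those shares. With equal sums, 2 were higher and 3 lower at 72 h (median -0.07), and 1 higher and 3 lower at 48 h (-0.15). The pump genes held 0.0899% ± 0.000614, 0.0857% ± 0.00164 and 0.0965% ± 0.000220 of the FPKM sum at 0 h, 48 h and 72 h (SD, n = 3 each). This share was higher in every 72 h library than in every 0 h library, and lower in every 48 h library. Whether the pump and the hydrolases differed was not tested.

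The changes in the V0 sector ran both ways. ATP6V0D1, which joins V0 to the central stalk, had 61.5, 57.9 and 59.1 FPKM at 0 h, 83.9, 76.6 and 69.7 at 48 h and 77.9, 83.5 and 78.6 at 72 h. The insulin libraries all lay above the 0 h ones and overlapped each other. On the log2 scale it changed by 0.42 ± 0.07 at 72 h (limma, adjusted p = 0.00062) and 0.36 ± 0.07 at 48 h (adjusted p = 0.0019). ATP6V0A1, 1 form of the a subunit, which is part of the proton path, had 13.3, 13.0 and 13.5 FPKM at 0 h, 9.42, 8.28 and 9.48 at 48 h and 11.8, 11.0 and 11.6 at 72 h. It was lowest at 48 h, with 72 h in between, and no 2 times overlapped. The log2 change was -0.50 ± 0.07 at 48 h against 0 h (adjusted p = 0.00020) and 0.31 ± 0.07 at 72 h against 48 h (adjusted p = 0.0087). At 72 h against 0 h it was -0.19 ± 0.07 (adjusted p = 0.037), and this call was lost when any one of the 0 h or 72 h libraries was left out (adjusted p = 0.058 to 0.11), after quantile normalization (adjusted p = 0.085) and with the trend on gene span removed (-0.12, adjusted p = 0.17). ATP6V0B, a subunit of the rotating ring, averaged 46.0 ± 1.56, 51.0 ± 4.44 and 46.3 ± 4.75 FPKM and was not called. TCIRG1, a gene outside the set for another form of the a subunit, was called higher at both insulin times. TCIRG1 was named after its values were seen.

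Of the 5 V1 subunits of the set, 1 was called at either insulin time, ATP6V1C1, beside 45.5% of all tested genes at 72 h and 49.9% at 48 h. Of the other tested V1 genes, ATP6V1G2 was higher at both times (0.62 at 72 h and 0.60 at 48 h). ATP6V1F was called at 48 h (0.35, limma, adjusted p = 0.015) and not at 72 h (0.21, adjusted p = 0.12). ATP6V1F was named after its values were seen. ATP6V1C1, which links V1 to V0 and is released when the pump comes apart, had 26.8, 26.4 and 28.03 FPKM at 0 h, 24.4, 23.2 and 24.7 at 48 h and 22.2, 21.4 and 21.8 at 72 h. Its libraries were lower at each later time without overlap, although the difference between 72 h and 48 h was not called (adjusted p = 0.084). Its log2 change was -0.30 ± 0.06 at 72 h (limma, adjusted p = 0.0012) and -0.16 ± 0.06 at 48 h (adjusted p = 0.034), and the 48 h call was lost without any one of the 0 h libraries or 48 h replicate 2 (adjusted p = 0.059 to 0.13). The ATP-hydrolysing ring subunits ATP6V1A and ATP6V1B2 averaged 19.8 ± 0.545 and 50.5 ± 2.44 FPKM at 0 h, 18.6 ± 2.33 and 51.1 ± 1.90 at 48 h and 19.7 ± 1.75 and 49.5 ± 1.2 at 72 h (SD, n = 3 each). Their log2 changes were -0.01 and -0.03 at 72 h, and those of ATP6V1D of the central stalk and the regulatory ATP6V1H were -0.02 and -0.10.

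Each accessory subunit was called at 1 of the insulin times. ATP6AP2, also known as the prorenin receptor, had 104, 105 and 105 FPKM at 0 h, 94.4, 105 and 108 at 48 h and 141, 142 and 137 at 72 h. The 0 h libraries were nearly equal, the 48 h ones spread around them and the 72 h ones lay above all others. Its change on the log2 scale was 0.42 ± 0.06 at 72 h against 0 h (limma, adjusted p = 0.00019), 0.45 ± 0.06 at 72 h against 48 h (adjusted p = 0.00047) and -0.03 ± 0.06 at 48 h against 0 h (adjusted p = 0.70). ATP6AP1, an assembly factor of the pump, averaged 61.2 ± 2.5, 71.2 ± 3.61 and 67.9 ± 3.45 FPKM (SD, n = 3 each). It was called at 48 h (0.21, adjusted p = 0.015) and not at 72 h (0.15, adjusted p = 0.078). Its difference between 72 h and 48 h was -0.07 (adjusted p = 0.44). The 48 h call was lost without 0 h replicate 2 or 3 or 48 h replicate 2 (adjusted p = 0.052 to 0.063), and under the 3 rescalings and the removal of the span trend (adjusted p = 0.13 to 0.75).

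**Figure D4:**
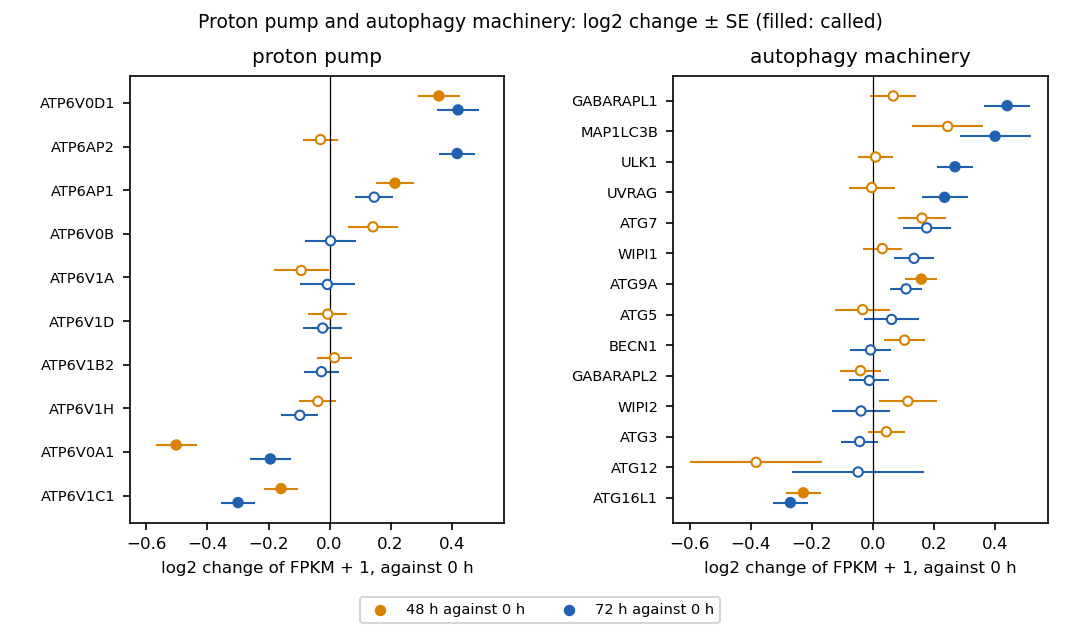
Points give the log2 change of FPKM + 1 against 0 h for each matched proton pump gene (left) and autophagy gene (right), at 48 h (orange) and 72 h (blue). Bars are ± SE and filled points were called. At 72 h the filled points are ATP6V0D1 and ATP6AP2 above 0 and ATP6V0A1 and ATP6V1C1 below it on the left, and GABARAPL1, MAP1LC3B, ULK1 and UVRAG above 0 and ATG16L1 below it on the right.

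Of the 14 autophagy genes, 4 were called higher and 1 lower at 72 h and 1 higher and 1 lower at 48 h, with median log2 changes of 0.09 and 0.04. These counts stand beside 23.0% higher and 22.5% lower of all tested genes at 72 h, and 27.6% and 22.4% at 48 h. At 48 h both counts were below those shares. With equal sums, 3 of the 14 were higher and 1 lower at 72 h (median 0.03), and 0 higher and 2 lower at 48 h (-0.10). GABARAPL1, a member of the ATG8 family that is conjugated to autophagosome membranes, had 24.1, 21.0 and 21.1 FPKM at 0 h, 22.0, 24.0 and 23.4 at 48 h and 30.0, 28.3 and 32.6 at 72 h. All 72 h libraries lay above the rest, which overlapped. The log2 change was 0.44 ± 0.07 at 72 h against 0 h (limma, adjusted p = 0.00073), 0.37 ± 0.07 at 72 h against 48 h (adjusted p = 0.0055) and 0.07 ± 0.07 at 48 h against 0 h (adjusted p = 0.48). MAP1LC3B (LC3B) of the same family had 130.5, 115 and 130.3 FPKM at 0 h, 141, 153 and 151 at 48 h and 198, 168 and 135 at 72 h. Its 72 h libraries were wide apart, with replicate 3 inside the range from 0 h to 48 h. The 72 h call (0.40, adjusted p = 0.016) was lost without 0 h replicate 2 or 72 h replicate 1 (adjusted p = 0.064 and 0.058), after quantile normalization (adjusted p = 0.051) and with no filter on low values (adjusted p = 0.050). GABARAPL2, a further ATG8 gene, averaged 100.4 ± 3.56, 97.6 ± 6.10 and 99.6 ± 6.32 FPKM and was not called.

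ULK1, the kinase that starts autophagy, had 17.4, 17.8 and 17.8 FPKM at 0 h, 17.5, 18.4 and 17.5 at 48 h and 20.6, 22.5 and 21.5 at 72 h. The 0 h and 48 h libraries were nearly equal and the 72 h ones lay above them. On the log2 scale it changed by 0.27 ± 0.06 at 72 h against 0 h (limma, adjusted p = 0.0030) and 0.26 ± 0.06 at 72 h against 48 h (adjusted p = 0.0089). UVRAG, which acts with Beclin 1 in a lipid kinase complex, averaged 5.87 ± 0.342, 5.85 ± 0.411 and 7.08 ± 0.370 FPKM (SD, n = 3 each). Its calls at 72 h against 0 h (0.23, adjusted p = 0.026) and against 48 h (0.24, adjusted p = 0.040) were both lost when single libraries were left out. For the comparison with 0 h these were 0 h replicates 1 and 2 and 72 h replicates 1 and 3 (adjusted p = 0.054 to 0.099), and this call was also lost with equal sums (adjusted p = 0.097) and equal protein-coding sums (adjusted p = 0.071). For that with 48 h they were all 0 h replicates, 48 h replicates 1 and 2 and 72 h replicates 1 and 3 (adjusted p = 0.054 to 0.13), and it was also lost with the trend on gene span removed (adjusted p = 0.26) and with no filter on low values (adjusted p = 0.071).

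ATG16L1, part of the complex that attaches ATG8 proteins to membranes, had 20.8, 22.8 and 21.9 FPKM at 0 h, 17.9, 18.9 and 18.7 at 48 h and 17.8, 17.8 and 18.1 at 72 h. The insulin libraries lay below all 0 h libraries and overlapped each other. The log2 change was -0.27 ± 0.06 at 72 h (limma, adjusted p = 0.0030) and -0.23 ± 0.06 at 48 h (adjusted p = 0.0078), and both were called under every alternative tried. Its partners ATG5 and ATG12 were not called. ATG12 had the largest standard error of the set, with 10.9, 9.42 and 16.5 FPKM at 0 h, 7.13, 11.3 and 8.74 at 48 h and 11.8, 8.81 and 14.6 at 72 h, so a change of its size at 48 h (-0.38 ± 0.22, adjusted p = 0.17) was within the spread of the libraries.

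The remaining steps of autophagosome formation showed small differences. ATG9A, the membrane-spanning lipid scramblase, averaged 25.7 ± 0.368, 28.8 ± 0.713 and 27.8 ± 0.571 FPKM (SD, n = 3 each). It was called at 48 h (0.16, limma, adjusted p = 0.027) and not at 72 h (0.11, adjusted p = 0.11). That call was lost without any one of the 0 h libraries or 48 h replicates 1 and 2 (adjusted p = 0.057 to 0.088). The conjugating enzymes ATG7 and ATG3, the lipid kinase partner BECN1 and the phosphoinositide-binding WIPI1 and WIPI2 had log2 changes between -0.04 and 0.18 at 72 h and between 0.03 and 0.16 at 48 h, none of them called.

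**Figure D5:**
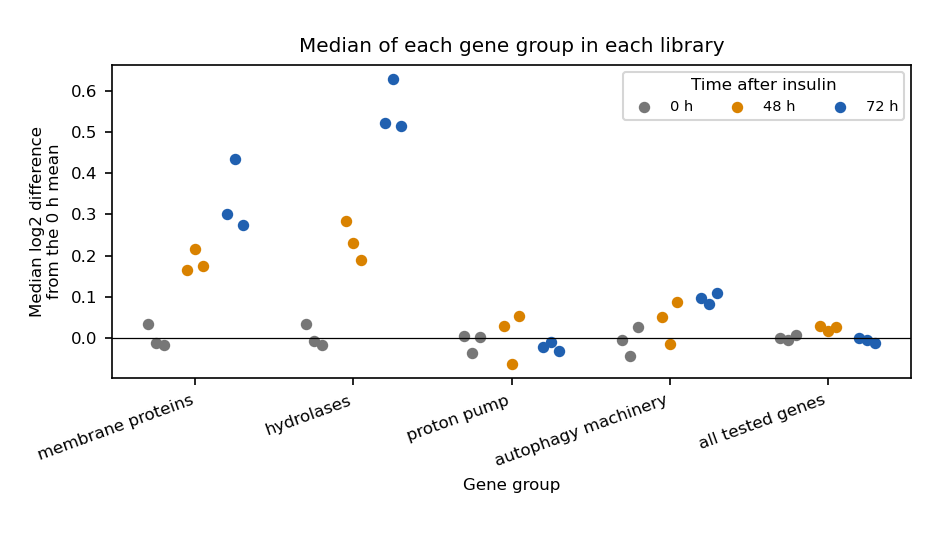
Each dot is the median, over the genes of a group, of the log2 difference between 1 library and the 0 h mean, at 0 h (grey), 48 h (orange) and 72 h (blue). Hydrolase medians lie at 0.19 to 0.28 at 48 h and 0.52 to 0.63 at 72 h, while those of the proton pump stay between -0.06 and 0.05.

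Other genes of the same pathways, taken from lists that were also chosen with earlier results of these data known, were set beside the members. Their counts are to be read beside all tested genes, with 23.0% called higher and 22.5% lower at 72 h. At 48 h those shares were 27.6% and 22.4%. Of 32 tested hydrolases and transport factors, 19 were called higher and 1 lower at 72 h, with a median of 0.28, and 14 higher and 6 lower at 48 h, with a median of 0.08. ARSA, a sulfatase acting on sulfatide, and GM2A, an activator of hexosaminidase, rose most at 72 h, by 0.95 and 0.94. At 48 h, the protease CTSO and SORT1, a sorting receptor, fell most, with log2 changes of -0.36 and -0.34. Of 18 further membrane proteins, 9 were higher and 1 lower at 72 h (median 0.28) and 5 higher and 2 lower at 48 h (-0.01). NPC1, which exports cholesterol from the lysosome, rose most, by 0.97 at 72 h and 0.71 at 48 h.

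The 12 further pump genes were again mixed, with 3 higher and 2 lower at 72 h (median 0.07) and 4 higher and 4 lower at 48 h (-0.03). These counts were near the shares of all tested genes, 23.0% higher and 22.5% lower at 72 h and 27.6% and 22.4% at 48 h. ATP6V1G2 (0.62 at 72 h and 0.60 at 48 h) rose most, and CCDC115, an assembly factor, fell most at 72 h (-0.45). Of 28 further autophagy genes, 6 were higher and 1 lower at 72 h (median -0.01) and 6 higher and 6 lower at 48 h (0.02). GABARAP, of the ATG8 family, rose by 0.44 at 72 h. The 13 autophagy receptors, which tether cargo to ATG8 proteins, included 9 higher and 1 lower at 72 h (median 0.45) and 7 higher and 1 lower at 48 h (0.34), led at 72 h by OPTN (1.0) and SQSTM1 (0.87). Of 17 genes of mTORC1 and its regulators at the lysosome, 8 were higher and 2 lower at 72 h (median 0.14), and 8 higher and 3 lower at 48 h (0.17). DDIT4, an inhibitor of mTORC1, rose by 1.52 at 72 h and 1.67 at 48 h, and MTOR itself fell to 11.0 ± 0.543 FPKM at 72 h and 9.92 ± 0.665 at 48 h, against 14.2 ± 0.178 at 0 h (SD, n = 3 each).

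With equal sums the 48 h counts of these lists moved towards lower calls. They were 6 higher and 10 lower for hydrolases and transport factors, 4 and 3 for membrane proteins, 2 and 5 for the pump and 3 and 11 for autophagy genes. Autophagy receptors had 5 higher and 2 lower, and mTORC1 genes 6 and 3. At 72 h they were 18 higher and 1 lower, 9 and 1, 3 and 2, 5 and 3, 8 and 1 and 6 and 4 for the same 6 lists in that order. Over all 11063 tested genes, equal sums gave 1959 higher and 3691 lower at 48 h, and 2159 and 2927 at 72 h.

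The MiT/TFE transcription factors, which bind lysosomal gene promoters, moved in different ways. TFE3 had 27.5, 26.6 and 27.2 FPKM at 0 h, 38.7, 34.6 and 36.2 at 48 h and 33.4, 33.3 and 32.1 at 72 h, so the insulin libraries lay above all 0 h ones (limma, log2 0.27 at 72 h with adjusted p = 0.0028, and 0.42 at 48 h with adjusted p = 0.00023). TFEB averaged 6.02 ± 0.255, 6.82 ± 0.645 and 6.13 ± 0.392 FPKM (SD, n = 3 each) and was not called. MITF was low, with 1.92, 2.01 and 2.17 FPKM at 0 h, 1.17, 1.21 and 1.47 at 48 h and 1.95, 2.5 and 2.48 at 72 h. It was lower at 48 h than at 0 h (-0.41, adjusted p = 0.0054) and higher at 72 h than at 48 h (0.53, adjusted p = 0.0033).

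In bulk RNA, more cells of a type and more RNA per cell cannot be told apart. The marker sums of other cell types differed between the times, some higher and some lower after insulin. Of 10 leukocyte markers, PTPRC and CD163 were at 0 in all 9 libraries and 8 stayed below 1 FPKM. Their sum was 2.62 to 3.32 FPKM at 0 h, 5.05 to 6.48 at 48 h and 4.58 to 6.04 at 72 h, with CD14 called higher at both times. Of 6 melanocyte markers, 5 stayed below 1 FPKM in all libraries, and their sum was 2.01 to 2.97 FPKM at 0 h, 1.33 to 2.32 at 48 h and 5.09 to 6.79 at 72 h, carried by MLANA. Epithelial markers (5 of 6 matched) summed to 5.83 to 6.96, 12.6 to 13.9 and 9.68 to 10.7 FPKM at the 3 times, with EPCAM and CDH1 below 1 FPKM. Endothelial markers (5 of 6 matched) summed to 6.40 to 6.67, 2.30 to 2.54 and 2.02 to 3.19 FPKM, with CDH5 at 0. Skeletal muscle markers summed to 1431 to 1461, 862 to 942 and 793 to 996 FPKM, with MYOD1 below 1 FPKM. They did not move together. DES, ACTA1 and MYH3 were called lower at both insulin times, while MYOG was called higher at both (0.66 at 48 h and 0.57 at 72 h). The part of these cells in the results was not tested.

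The members lie on many chromosomes of Sscrofa11.1, and 51 of the 52 had a position in the RefSeq annotation. Chromosome 12 held a few close together. SGSH (2241824 to 2248388) and GAA (2315807 to 2339867), both higher at both insulin times, lie close to each other. GRN (18893772 to 18900444), higher at both times, BECN1 (20041914 to 20054249), not called, and ATP6V0A1 (20288409 to 20344142), lower at both times, lie further along it. Of the 51, 14 overlap another annotated gene and 12 overlap a protein-coding one, so reads of those genes may be shared.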

How the data were processed

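RNA of 9 libraries was analysed, 3 each at 0 h, 48 h and 72 h, grouped by the submitters' labels. The deposited values are FPKM made by the authors, per the file headers, with a single value for every gene in each library. Per the submitters' processing notes, the build was Sscrofa11.1 and the tools included RSEM 1.2.28, DESeq2, featureCounts 2.0.2 and HISAT2 2.1.0, without saying which made the FPKM. Symbols were paired with 14864 of the 30477 gene IDs, and positions were looked up by symbol in RefSeq's gene table for that build. Read depth is unknown, since FPKM carries no counts and the steps between low values gave no stable estimate. Precision is set by the spread between libraries, with a median SE of 0.088 (log2).

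All 9 libraries entered 1 fit of log2(FPKM + 1) in limma 3.58.1 (R 4.3.3), fitted to group alone with a trended prior. Fold changes refer to log2(FPKM + 1) and are too small for low genes. Tests were two-sided, with Benjamini-Hochberg adjustment over 11063 genes, and a gene was called at an adjusted p below 0.05. On simulated data with these genes (72 h against 0 h), 75% of 100 genes changed by 0.5 and 96% of 100 changed by 1 were recovered. No other gene of the 11063 was changed, and 12 unchanged genes were called. In the real comparison 45.5% were called, so these rates check the code and may not carry over to the data. The member genes and all lists were chosen with earlier results of these data known. All members could be named, and of the other pathway genes the 2 called genes with the largest rise and fall per list and comparison, with every MiT/TFE gene. The division of hydrolases and pump genes into classes was made after the values were seen. Settings varied were the pseudocount, the filter, the scaling, a trend on gene span, library weights, a replicate term and leaving out each library.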

Additional observations from a re-analysis of the deposited data

Results flagged for a closer look

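The change against 0 h differed between 72 h and 48 h for 18 of the 52 genes by a test of that difference itself, the limma comparison of 72 h with 48 h. The difference (72 h minus 48 h, log2) was 0.75 for ASAH1, 0.55 for LAMP2, 0.54 for SCARB2, 0.53 for CTSB, 0.49 for CTSH, 0.44 for CTSA, 0.42 for CTSD, 0.39 for GRN, 0.36 for TPP1, 0.28 for PSAP, 0.26 for SGSH, 0.23 for HEXA and 0.18 for GLB1. It was 0.45 for ATP6AP2 and 0.31 for ATP6V0A1 of the pump, and 0.37 for GABARAPL1, 0.26 for ULK1 and 0.24 for UVRAG of the autophagy machinery. Every one of these differences was positive, for GLB1 and ATP6V0A1 from a lower value at 48 h. Of all tested genes, 25.4% were called in that comparison, 9.17% higher and 16.3% lower. Quantile normalization and equal sums each put 23 of the 52 genes higher. The calls of GLB1, SGSH and UVRAG were lost in 5, 9 and 9 of 19 other settings.

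Among the other pathway genes, 3 were called in opposite directions against 0 h at the 2 times. NPC2, which carries cholesterol to NPC1, changed by 0.25 at 72 h and -0.18 at 48 h, a difference of 0.43. LGMN, a protease that processes cathepsins, changed by 0.23 at 72 h and -0.18 at 48 h, a difference of 0.41. IGF2R, a mannose 6-phosphate receptor that delivers hydrolases, changed by 0.25 at 72 h and -0.29 at 48 h, a difference of 0.54. They were picked because of these values, and both times share their 0 h libraries.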

How the results depend on the processing

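At 72 h, 28 members were higher and 4 lower as reported, and 25 to 31 higher and 3 to 5 lower under the other settings. At 48 h, where 21 were higher and 5 lower, the higher calls numbered 11 after quantile normalization, 9 with equal FPKM sums, 11 with equal protein-coding sums and 13 with the trend on gene span removed, and the lower calls 8 in each of the first 3 of these settings. In the last, 3 genes reversed at 48 h, CD63 to -0.062, CTSA to -0.0032 and GRN to -0.0011. Leaving out 1 library gave 14 to 23 members higher and 3 to 5 lower at 48 h, the fewest higher without 0 h replicate 2, and 15 to 19 higher and 0 to 1 lower at 72 h against 48 h. Over all tested genes, equal sums gave 1959 higher at 48 h, against 3048 as reported. For 72 h against 48 h, 1014 were higher and 1800 lower as reported. Library weights gave 1602 higher, and the lower calls were 1127 with equal sums, 1164 with equal protein-coding sums and 1150 with the span trend removed. Leaving out 1 library gave 589 to 1497 higher and 1138 to 2196 lower. Fitting the same genes with a span but no trend removed, a setting chosen after seeing the data, gave 22 members higher and 5 lower at 48 h. With the replicate block the members numbered 22 higher and 5 lower at 48 h, 28 and 4 at 72 h and 19 and 0 at 72 h against 48 h. Same-numbered libraries of different times correlated at -0.0709 to 0.193 in their deviations (9 pairs, median 0.059). Others correlated at -0.182 to 0.174 (18 pairs, median -0.076). These ranges overlap, and whether the numbers pair the libraries was not tested. The causes were not tested. Having 3 libraries a time limits the precision, and small changes at 48 h could not be told from a shift of scaling.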
